A study of Mus musculus with 3 samples.

Results

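Among the 9644 droplets deposited from 3 mouse lungs, 401 held little RNA, almost no mitochondrial RNA or nuclear *Malat1*, and RNA of *Epas1*, a gene high in endothelial cells (ECs). They were chosen by 6 conditions on unique molecular identifiers (UMIs), random tags that count each captured transcript once. A droplet had at least 200 detected genes, at most 2000 UMIs, under 2% of UMIs from the 13 mitochondrial (mt-) genes, at most 1 UMI of *Malat1*, a long noncoding RNA held in the nucleus, at least 1 UMI of *Epas1*, and fewer than 20 UMIs of *S100a8* and *S100a9* together. These droplets, called *Epas1*+ low-mt droplets below, were 159 of 3034 in mouse 2, 97 of 3135 in mouse 3, and 145 of 3475 in mouse 4, or 4.17% ± 1.07% of the droplets per mouse (SD, n = 3). Because they are small, they held 0.518% ± 0.117% of the library UMIs.

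All 3 mice were wild-type C57BL/6 pups kept in room air (RA) on days of life 1 to 14, and their whole lungs were taken at P14. The libraries were made with 10x Genomics Chromium v3 chemistry from freshly dissociated cells, and no sort or gate on the cells is given. The study used these lungs to ask which cells express *Dll4*. The mice form 1 condition and are the replicates, so droplets were summed per mouse and compared with other droplets of the same lungs.

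ECs line the lung capillaries and exchange gas with the alveolar epithelium. *Epas1* encodes the oxygen-sensing transcription factor HIF-2α, *Hpgd* the enzyme that inactivates prostaglandins, *Sox7* a SoxF transcription factor of ECs, and *Tmem100* a membrane protein of the BMP9-ALK1 pathway. In a cell, mRNAs of secreted and membrane proteins are mostly translated at the endoplasmic reticulum (ER), mRNAs of cytosolic and nuclear proteins mostly on free ribosomes, and mt- transcripts stay inside mitochondria.

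The values that the selection used are given as a description. The droplets held 500 to 1977 UMIs (median 828) and 340 to 1268 genes (median 605). No droplet of the deposited tables had fewer than 500 UMIs. The median mt- share was 0.357%, *Malat1* was at 0 in 324 droplets and at 1 UMI in 77, and *S100a8* plus *S100a9* did not exceed 2 UMIs. *Epas1* had 1 UMI in 63 droplets, 2 or more in 338, 5 or more in 182, and 23 at most. Just inside the limits lay a droplet with 1977 UMIs and another with 1.997% mt- UMIs, and just outside lay droplets with 2055 UMIs and with 2.05%. Without the *Malat1* limit 443 droplets met the rest of the conditions, without the mt- limit 655, without the UMI limit 424, and without the *Epas1* condition 545. Summed UMIs were 148799, 88690, and 134381 in mice 2, 3, and 4, so values from mouse 3 carry the largest counting error. Between mice, log CPM (UMI counts scaled to a library of 1000000 UMIs) of the sums correlated across genes with r = 0.846, 0.876, and 0.833, and genes are not independent replicates. In all, 12 cell barcodes occurred in more than 1 library, and 2 of the 401 droplets carried such a barcode.

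**Figure D1:**
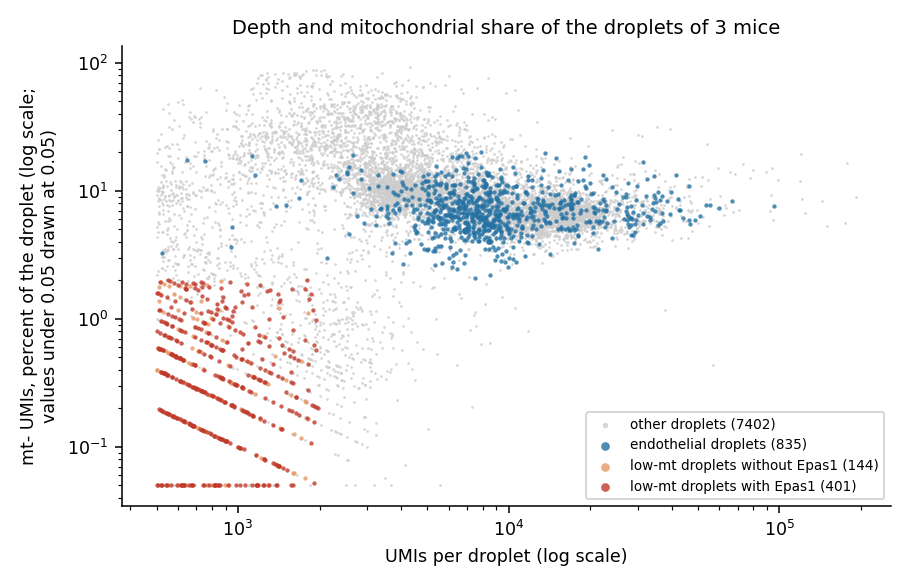
Total UMIs per droplet (log scale) against the percent of UMIs from mt- genes (log scale, values under 0.05% drawn at 0.05%), with 1 point per droplet of at least 200 genes and the *Epas1*+ and *Epas1*-negative low-mt and the endothelial droplets in color. The 401 chosen droplets lie below 2000 UMIs and 2% mt- UMIs, while the 835 endothelial droplets had a median of 8160 UMIs and 6.90% mt- UMIs.

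The reference groups were nucleated droplets of the same libraries, with 2% to 20% mt- UMIs and at least 2 *Malat1* UMIs, assigned to a class by 3 gate genes (*Pecam1*, *Cdh5*, and *Cldn5* for endothelial droplets). The endothelial reference held 835 droplets (308, 202, and 325 in mice 2, 3, and 4) with medians of 8160 UMIs and 3306 genes. Droplets that met every other condition but held no *Epas1* UMI numbered 144 (50, 44, and 50), with medians of 747 UMIs and 496 genes. Gate genes and the genes of the selection were given no test.

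The 4 markers of the group are given as levels, and that of *Epas1* was raised by the selection itself. In the order of mice 2, 3, and 4, which holds for every series of 3 values that follows, *Epas1* reached 4839, 5570, and 4763 CPM. It was at 2563 ± 16.5 CPM in endothelial droplets, 153 ± 11.2 in stromal, 172 ± 8.81 in epithelial, and 19.9 ± 3.31 in B-cell-type droplets (SD, n = 3). *Hpgd* was at 3017, 3416, and 2686 CPM, *Sox7* at 437, 609, and 566 CPM, and *Tmem100* at 1673, 1342, and 1436 CPM. In CPM, the 3 genes beside *Epas1* stood above the nucleated endothelial droplets in each mouse, where *Hpgd* averaged 1410 ± 35.1, *Sox7* 243 ± 17.6, and *Tmem100* 1151 ± 38.1 CPM. After division by the TMM normalization factors used for the fold changes, this held for *Hpgd* and *Sox7*, while *Tmem100* was at 1387, 999, and 1160 CPM against 1161, 1108, and 1191 CPM, above the endothelial droplets in mouse 2 and below them in mice 3 and 4. In the *Epas1*-negative low-mt droplets *Hpgd* was at 383, 108, and 233 CPM and *Sox7* at 45.0, 135, and 23.3 CPM. The gate genes of the endothelial reference, which encode junction proteins of ECs, were present at lower levels. *Pecam1* was at 155, 214, and 149 CPM, *Cdh5* at 121, 214, and 119 CPM, and *Cldn5* at 457, 496, and 387 CPM, against 1629 ± 89.7, 2249 ± 48.0, and 2658 ± 49.6 CPM in the endothelial droplets that these genes had selected. *Cdh5* in stromal droplets was 4.98 ± 0.523 CPM, and in epithelial droplets 1.58 ± 0.314 CPM. None of these 3 gate genes, which the selection had not used, was at 0 in any mouse.

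**Figure D2:**
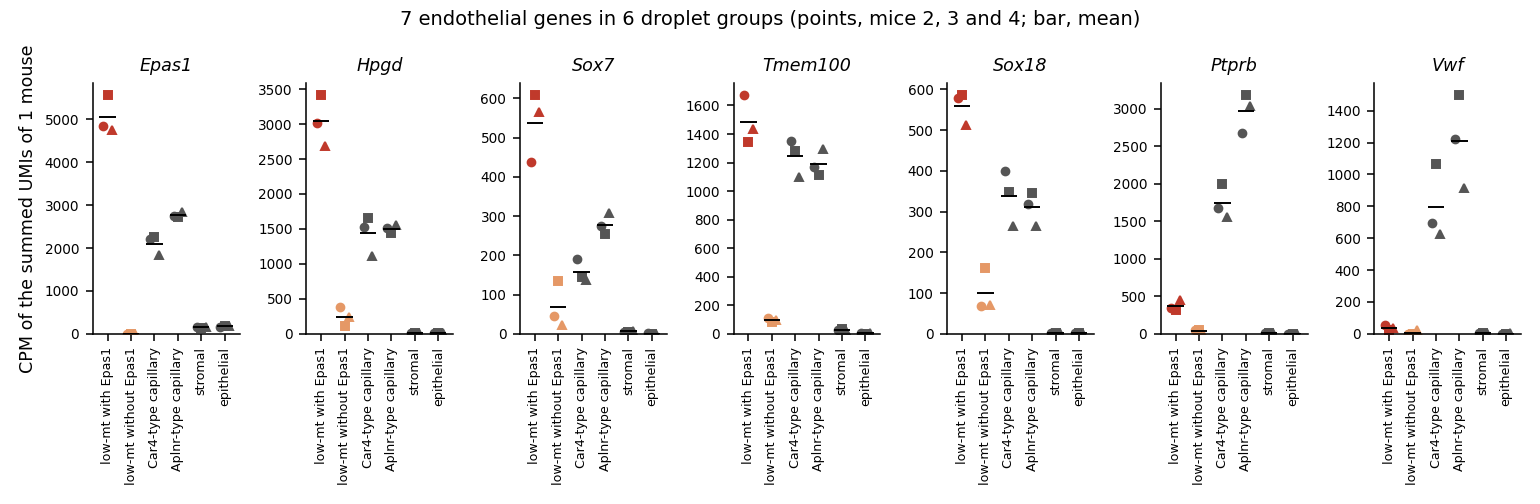
CPM (linear scale) for 7 genes in 6 droplet groups, with 1 point per mouse (circle, square, and triangle for mice 2, 3, and 4) and a bar at the mean. The means of *Epas1*, *Hpgd*, *Sox7*, *Tmem100*, and *Sox18* were highest in the *Epas1*+ low-mt droplets, while *Vwf* was at 22.6 to 53.8 CPM there and at 628 to 1499 CPM in the capillary groups.

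Per droplet, endothelial RNA was widespread. Endothelial genes beside *Epas1*, including the gate genes and the markers *Hpgd*, *Sox7*, and *Tmem100*, gave at least 1 UMI in 369 of the 401 droplets (92.0%). At least 3 UMIs were present in 345. These 3 markers led an earlier clustering of the same droplets, so their UMIs are no independent support for endothelial RNA. A list of 25 other endothelial genes had a UMI in 363 droplets, 90.5% (exact 95% binomial interval 87.2% to 93.2%, counting error only). After thinning every droplet to 500 UMIs, the share was 86.4%, against 32.1% in stromal, 19.7% in B-cell-type, and 10.3% in epithelial droplets, which should lack most of these genes. Endothelial UMIs, counted with the gate genes and markers, were set against a sum of other lists. That sum held smooth muscle, pericyte, fibroblast, alveolar type 1 (AT1) and 2 (AT2), airway, B cell, T and NK cell, and macrophage genes. *Sftpc* and the neutrophil, erythroid, platelet, and mast cell lists were left out of it. Endothelial UMIs outnumbered this sum in 342 droplets (85.3%), 136 in mouse 2, 85 in mouse 3, and 121 in mouse 4. In the remaining droplets endothelial UMIs did not outnumber this sum, and 32 of the 401 droplets had none beside *Epas1*.

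Compared with nucleated endothelial droplets, the *Epas1*+ low-mt droplets held EC mRNAs unevenly. mRNAs of EC surface receptors were much lower, none of those of EC transcription factors was lower and 3 were higher, and those of ribosomal, respiratory chain, and actin proteins were higher. Of 13727 genes tested, 1177 (8.57%) were higher and 2522 (18.4%) lower, 26.9% in all (edgeR quasi-likelihood test on sums per mouse, Benjamini-Hochberg adjusted p under 0.05). These fold changes use TMM normalization, and library size scaling alone shifts them upward by 0.32 on the log2 scale, which gives 2032 higher and 1827 lower. By share of calls, 31.8% were higher with TMM and 52.7% without. The median of all tested genes was -0.36 with TMM, and 0 with genes at 0 in a group set to their bound. Without mouse 2 the number of higher genes was 579, and without mouse 4 it was 700. Droplets of at most 1000 UMIs alone gave 333. Against the 11 droplets of the endothelial reference with at most 2000 UMIs, 1041 genes were higher and 27 lower. Of these calls 689 were also made in the main comparison, 659 of them in the same direction. Fitted folds against so few droplets are listed only with the processing alternatives, and depth and droplet group cannot be told apart in these libraries. Without the 167 droplets that held any UMI of smooth muscle, pericyte, or fibroblast genes the number of higher genes was 651.

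Of the 25 endothelial genes beside the gate, 22 were lower, 1 was higher, and 2 did not pass the test, with a median log2 fold change of -2.86. *Ptprb*, the endothelial receptor tyrosine phosphatase VE-PTP, was at 343, 316, and 454 CPM, while endothelial droplets had 2744, 3059, and 2920 CPM. The groups were far apart in each mouse, with a log2 fold change of -3.28 ± 0.16 (SE, edgeR adjusted p = 6.98e-14). *Cd93*, a C-type lectin receptor of ECs, was at 349, 372, and 365 CPM against 2110, 2021, and 2135 CPM (log2 fold change -2.86 ± 0.22). The VEGF receptors fell to a like degree, *Kdr* by 3.54 and *Flt1* by 3.58 on the log2 scale. The angiopoietin receptor *Tek* fell by 3.44 and its relative *Tie1* by 4.58. Smaller falls were seen for *Calcrl*, the receptor for adrenomedullin, by 2.19, and for *Egfl7*, a secreted EC protein, by 0.83, from 1529, 1552, and 1454 CPM to 1069, 1218, and 960 CPM. *Vwf*, the clotting factor stored by ECs of larger vessels, was at 53.8, 22.6, and 37.2 CPM against 1414, 1684, and 1105 CPM and had the lowest fold change among these named EC genes (-5.44 ± 0.27). None of these genes overlapped between the groups. This is not particular to them, since none of the 75 higher ribosomal and 16 higher respiratory chain genes overlapped either.

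The transcription factors of ECs behaved otherwise. Of 13 tested, beside *Epas1* and *Sox7*, 3 were higher, none was lower, and 10 did not pass, with a median log2 fold change of 0.09 (0.42 and 5 higher without TMM, and a median of -0.042 in DESeq2). *Ets1*, an ETS factor of vascular growth, was at 1539, 1240, and 1287 CPM against 780, 711, and 778 CPM, higher in each mouse (log2 fold change 0.52 ± 0.14, edgeR adjusted p = 0.00828). Its relative *Fli1* was at 242, 507, and 380 CPM against 140, 165, and 156 CPM (0.90 ± 0.19, adjusted p = 0.000843, edgeR). *Sox18*, with *Sox7* a member of the SoxF group, was at 578, 586, and 514 CPM against 359, 370, and 289 CPM (0.39 ± 0.14, adjusted p = 0.0342, edgeR). *Sox17* was at 531, 451, and 454 CPM against 394, 377, and 400 CPM, and its log2 fold change was -0.02 ± 0.16 (edgeR adjusted p = 0.96). *Erg* was at 175, 158, and 141 CPM against 174, 211, and 204 CPM, where the groups overlapped (-0.63 ± 0.24, edgeR adjusted p = 0.0549). Summed over the list, the factors made up 0.635% of UMIs in *Epas1*+ low-mt droplets and 0.463% in endothelial droplets. The 25 endothelial genes, 3 of them transcription factors, made up 0.626%, 0.617%, and 0.595% of UMIs against 2.38% ± 0.0656%.

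**Figure D3:**
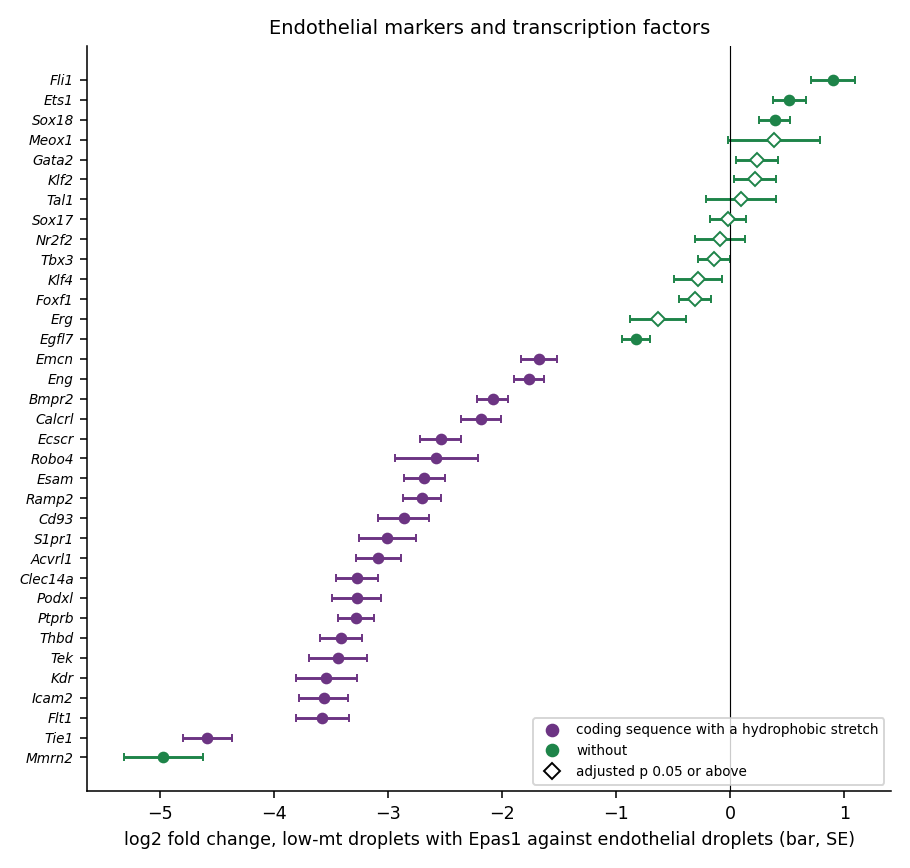
log2 fold change ± SE (edgeR) of 35 endothelial genes in *Epas1*+ low-mt droplets against nucleated endothelial droplets, summed per mouse (n = 3), colored by the hydrophobic stretch described further on, with open symbols for genes that did not pass. The receptors and other surface or secreted EC proteins lie to the left, down to -4.97 for the secreted *Mmrn2*, and the transcription factors lie around 0, up to 0.90 for *Fli1*.

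Lists of the pathways in which the marker genes act gave mixed counts, to be read beside the 8.57% of all genes that were higher and the 18.4% that were lower. Of 9 BMP pathway genes beside *Tmem100*, 3 were lower, 1 was higher, and 5 did not pass. The lower genes were the receptors and coreceptor, *Bmpr2* (350, 406, and 387 CPM against 1204, 1330, and 1292 CPM, log2 fold change -2.08 ± 0.13), *Acvrl1* (-3.09), and *Eng* (-1.76), and the higher gene was *Id2*, a nuclear target of the pathway (450, 429, and 439 CPM against 234, 259, and 240 CPM, 0.52 ± 0.15). Of 7 genes of prostaglandin handling beside *Hpgd*, 2 were lower and 5 did not pass. *Slco2a1*, the transporter that carries prostaglandins into the cell to HPGD, was at 108, 113, and 112 CPM against 1254, 1199, and 1201 CPM (log2 fold change -3.79 ± 0.18), while *Hpgd* itself stood at 2686 CPM or more in every mouse. *Ptgs1*, the ER enzyme of prostaglandin synthesis, had 1 UMI in the 401 droplets. Of 13 hypoxia pathway genes beside *Epas1*, 2 were lower, *Arnt* (-1.03), the partner of HIF-2α, and *Vegfa* (-2.40), and 11 did not pass, whereas without TMM 1 was lower and 1 higher. *Hif1a* was at 108, 147, and 112 CPM against 108, 106, and 111 CPM. Of 8 caveola genes, 1 was higher and 2 were lower, and 5 did not pass. The lower ones were the membrane-embedded caveolins *Cav1* (-0.92) and *Cav2* (-0.80), and the higher one was the soluble cavin *Prkcdbp* (0.62). *Ptrf*, the main cavin, was at 1196, 1466, and 1086 CPM against 734, 792, and 740 CPM, and *Sdpr* at 2090, 2210, and 1965 CPM against 1569, 1663, and 1543 CPM. Both stood higher in CPM in each mouse, but their fold changes after TMM did not pass. Without TMM, 4 caveola genes were higher and 2 lower.

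Genes grouped by where their products work in the cell separated further. Ribosomal protein mRNAs took 13.6% ± 0.615% of UMIs in *Epas1*+ low-mt droplets and 7.19% ± 0.224% in endothelial droplets, and 75 of 80 tested genes were higher and 0 lower (median log2 fold change 0.59). Of 20 nuclear-encoded respiratory chain genes, 16 were higher and 0 lower (median 0.77), although the mt-encoded genes had been selected to be low. *Cox7c* was at 847, 755, and 692 CPM against 372, 330, and 329 CPM. Of 11 actin cytoskeleton genes, 10 were higher, and *Vim* did not pass. *Actb* was at 7466, 8174, and 6727 CPM against 3949, 3772, and 3707 CPM. These lists moved the other way from the ER list, of which 9 of 10 genes were lower and 1 higher, with a median of -3.23. Against the *Epas1*-negative low-mt droplets no ER gene passed the test (median -0.90). The low ER values are thus not shown to be particular to droplets with *Epas1*.

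The lower ER genes include the chaperones *Calr* (54, 45, and 112 CPM against 501, 504, and 544 CPM, log2 fold change -3.16 ± 0.20), *Hspa5* (-3.36 ± 0.29), and *Canx* (-3.81 ± 0.25). The higher ER gene, *Sec61b*, a subunit of the protein-conducting channel, was at 390, 474, and 350 CPM against 174, 152, and 162 CPM (0.96 ± 0.13, edgeR adjusted p = 5.36e-06). Of 6 nuclear long noncoding RNAs beside *Malat1*, 3 were lower, among them *Neat1* (40.3, 11.3, and 14.9 CPM against 143, 156, and 138 CPM) and *Kcnq1ot1* (3 UMIs in all 401 droplets). Both groups were chosen by *Malat1*, which favors lower values for such RNAs. The share of this list in endothelial droplets also varied widely over the mice (0.110% ± 0.125%, SD). Immediate early and heat shock genes, which rise during dissociation, were 2 of 17 lower, *Btg2* and *Dusp1*, with 15 not passing, a share below the 18.4% of all genes.

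**Figure D4:**
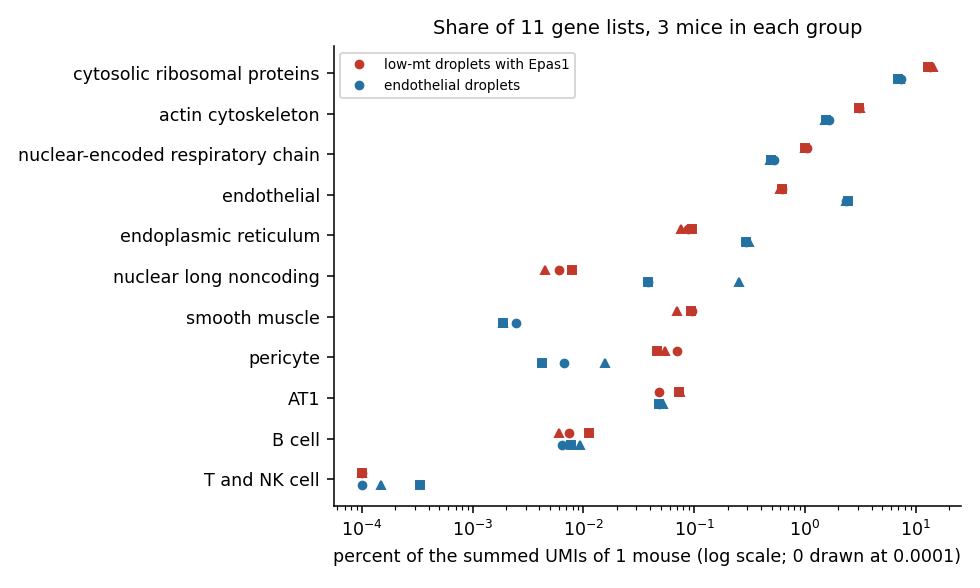
Percent of UMIs (log scale) in 11 gene lists for the *Epas1*+ low-mt droplets and the endothelial droplets, with 1 point per mouse (circle, square, and triangle for mice 2, 3, and 4; a share of 0 is drawn at 0.0001%). Ribosomal, respiratory chain, actin, smooth muscle, and pericyte genes took larger shares in the *Epas1*+ low-mt droplets, and endothelial, ER, and nuclear noncoding genes smaller shares.

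Summed shares differed with no overlap between groups for the ribosomal, respiratory chain, actin, ER, nuclear noncoding, and endothelial lists (exact permutation test, 2-sided p = 0.1 each, the smallest that 3 mice against 3 allow, and 0.1 after adjustment over 7 tests). The seventh value was the number of genes per droplet at 500 UMIs, 401 ± 1.94 against 397 ± 0.888. The *Epas1*-negative low-mt droplets had 367 genes at this depth.

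The split between surface and soluble proteins, seen in the lists above, was then measured over all coding genes, which include the listed genes. For each gene the longest complete coding sequence in GENCODE M21 was read, and the mean Kyte-Doolittle hydropathy, a scale of how strongly an amino acid avoids water, was taken over every window of 19 codons. A gene was said to have a hydrophobic stretch when a window reached 1.6 or more, a length and level typical of transmembrane segments and of many signal sequences. The most hydrophobic windows of 5 mRNAs are shown because they carry this contrast: *Ptprb* and *Cd93* for lower receptors, *Ets1* and *Sox18* for higher transcription factors, and *Sec61b* for the exception among ER genes. Capitals mark T at the second base of a codon, which in the genetic code gives a hydrophobic amino acid in nearly every case.
Ptprb: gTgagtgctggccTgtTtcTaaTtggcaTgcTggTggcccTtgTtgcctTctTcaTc
Cd93: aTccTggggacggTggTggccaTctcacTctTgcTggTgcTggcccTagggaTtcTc
Sec61b: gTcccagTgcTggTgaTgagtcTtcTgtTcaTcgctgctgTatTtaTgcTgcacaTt
Ets1: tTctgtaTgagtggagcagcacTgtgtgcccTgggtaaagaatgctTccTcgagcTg
Sox18: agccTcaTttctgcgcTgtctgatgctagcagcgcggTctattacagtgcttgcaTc

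All 5 windows are 57 bases of coding exon, written 5′ to 3′ on the coding strand, with positions on GRCm38. The *Ptprb* window lies at chr10:116361234-116361290, plus strand, in exon 23 of 34, codons 1911 to 1929 of 2285, with hydropathy 2.68 and T at the second base in 13 of 19 codons. The *Cd93* window lies at chr2:148441637-148441693, minus strand, in exon 1 of 2, codons 578 to 596 of 644 (2.84, 13 codons). The *Sec61b* window lies at chr4:47482982-47483038, plus strand, in exon 4 of 4, codons 71 to 89 of 96 (2.55, 14 codons), close to the end of a short reading frame. The *Ets1* window lies at chr9:32730144-32730200, plus strand, in exon 3 of 8, codons 98 to 116 of 440 (1.22, 7 codons), and the *Sox18* window at chr2:181670212-181670268, minus strand, in exon 2 of 2, codons 357 to 375 of 377 (1.03, 5 codons). In these 2 genes no window reached 1.6. *Sec61b* was chosen for printing after its values were seen.

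Genes with a hydrophobic stretch had lower medians than genes without. Among genes at 50 CPM or more in endothelial droplets, 1277 had a stretch, and of these 74.2% were lower and 5.40% higher in *Epas1*+ low-mt droplets, with a median log2 fold change of -1.94. Of the 2712 genes without a stretch, 20.8% were lower and 25.4% higher, with a median of 0.09. Choosing genes by their level in endothelial droplets favors lower values in both classes, and over all 13177 genes with a coding sequence 34.6% and 10.1%, respectively, were lower and 2.90% and 12.1% higher. Over these 13177 genes the medians with and without a stretch were -1.61 and -0.01 with TMM (-0.55 and 0 with genes at 0 in a group set to their bound), and -1.29 and 0.26 without TMM. Among the genes at 50 CPM or more, the difference between the class medians, computed from CPM with a pseudocount of 10, was -1.67, -1.72, and -1.76 in mice 2, 3, and 4, and thus nearly the same in each animal.

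Values also differed by the position of the stretch. Over all tested genes, 39.4% of 663 were lower where the stretch lay within the first 40 codons only, as in signal sequences (median -1.82, or -0.68 with genes at 0 in a group set to their bound), and 34.6% of 3803 where it lay elsewhere (-1.62, or -0.59). Where it lay within the last 40 codons only, as in *Sec61b* and *Cox7c*, 16.6% of 187 genes were lower and 18.2% higher (0.094, or 0.052). Among genes at 50 CPM or more in endothelial droplets, a choice that favors lower values, the order was the same, with 84.1% of 182 genes lower (median -2.41), 76.1% of 1021 (-1.95), and, for the last 40 codons, 24.3% of 74 lower and 33.8% higher (0.22). *Sec61b* encodes a tail-anchored protein, a kind that is inserted into membranes after its translation. These values describe the genes, which are not independent replicates, and the difference between positions was not tested.

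**Figure D5:**
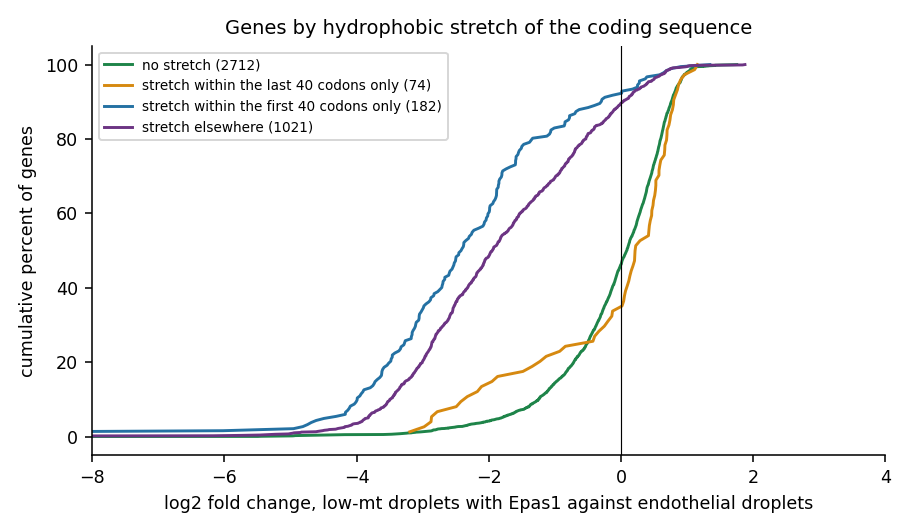
Cumulative share of genes by log2 fold change (*Epas1*+ low-mt against endothelial droplets) for genes at 50 CPM or more in endothelial droplets, by position of the hydrophobic stretch. The curves for stretches in the first 40 codons (median -2.41) and elsewhere (-1.95) lie to the left, and those for the last 40 codons (0.22) and for no stretch (0.09) lie close together.

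The listed genes can be read beside the share of genes with a stretch. It was 35.3% of all coding genes, 65.2% of all lower genes, and 11.6% of all higher genes. Of the 22 endothelial genes that were lower, 20 have a stretch, the exceptions being *Egfl7* and *Mmrn2*, and none of the 13 transcription factors has one. Of the 9 lower ER genes, 8 have a stretch, and of the 2 lower caveola genes both have one. Of the 10 higher actin genes none has one. The respiratory chain list went the other way, since 5 of its 16 higher genes and 2 of the 4 that did not pass have a stretch, as does the higher *Sec61b*. The marker *Tmem100*, which was not tested, also has a stretch and was not low in CPM. Coding length moved with the stretch as well. The median coding length was 723 bases in genes that were higher, 1860 in genes that were lower, and 1395 in all. Among genes at 50 CPM or more in endothelial droplets, a choice that favors lower values, the medians in 3 equal classes of coding length, from short to long, were -1.42 with and 0.54 without a stretch, -2.21 and 0.01, and -2.10 and -0.49, so the difference was present in each, and long genes without a stretch were lower too.

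RNA of cells other than ECs was counted with lists for those cells. The 12 genes with the largest rise, among those at 50 CPM or more, were mostly genes of contractile cells. *Acta2*, smooth muscle actin, was at 544, 541, and 283 CPM against 4.56, 4.55, and 6.78 CPM (log2 fold change 6.06 ± 0.27, edgeR adjusted p = 2.32e-14), *Tagln* at 329, 304, and 320 CPM (4.83 ± 0.29), and *Myl9*, a myosin light chain, at 262, 214, and 171 CPM (4.29 ± 0.31). *Tpm2*, *Des*, and *Ppp1r14a*, which encode a tropomyosin, the intermediate filament desmin, and an inhibitor of myosin phosphatase, rose by 5.04, 3.66, and 3.85. *Heyl*, *Tbx4*, *Lgals1*, and *Cryab* rose by 3.79, 3.52, 3.64, and 3.41. The cardiac sarcomere gene *Tnnt2* was at 20.2, 428, and 7.44 CPM, so its rise came largely from mouse 3, and *Actc1* at 47.0, 180, and 14.9 CPM had its highest value in the same mouse. None of these 12 genes has a hydrophobic stretch, which is rare among all higher genes too (11.6%).

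By list, all 5 smooth muscle genes were higher (median 4.83), as were 2 of 6 pericyte genes, *Cox4i2* (175, 124, and 179 CPM against 12.5, 3.73, and 20.04 CPM) and *Gucy1a3*. Of 6 fibroblast genes, *Tcf21* and *Mfap4* were higher, and *Eln*, which encodes the secreted elastin, was lower (766, 789, and 476 CPM against 3615, 5846, and 3188 CPM). These UMIs lay in part of the droplets. Smooth muscle genes gave 0.0863% of UMIs and had a UMI in 60 droplets, pericyte genes in 43 (10.7%), and fibroblast genes in 134 (33.4%). In 43 droplets at least 3 UMIs of these 3 lists outnumbered the endothelial UMIs, 20 in mouse 2, 9 in mouse 3, and 14 in mouse 4. In the 234 droplets with no UMI of these lists, *Acta2* and *Tagln* are at 0 by construction. *Tpm2*, *Ppp1r14a*, *Des*, *Myl9*, and *Tbx4* are on none of these lists and did not pass the test there. Their fitted log2 fold changes were -6.05, -7.37, -0.092, -1.27, and -6.73. In endothelial droplets these genes averaged 2.91, 7.56, 3.89, 8.79, and 4.92 CPM. Since 3 UMIs already make 8.07 CPM in all *Epas1*+ low-mt droplets together, no direction is read from these fitted values. In the 234 droplets *Lgals1*, *Cryab*, and *Heyl*, also on none of the lists, had log2 fold changes of 0.18, 1.82, and 0.033. They did not pass the test, while *Tnnt2* and *Actc1* did (9.20 and 5.06). In the 338 droplets with 2 or more *Epas1* UMIs, however, neither *Tnnt2* nor *Actc1* passed (fitted log2 fold changes -2.60 and 0.32). The endothelial droplets held 2 UMIs of *Tnnt2* and 17 of *Actc1*, so no direction is read from these 2 values. In the 234 droplets the median of the endothelial list was -2.93, close to that over all droplets.

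Of the 12 genes with the lowest fold changes, 11 have a coding sequence, and 7 of these have a stretch. That is near the share among all lower genes, 65.2% (35.3% of all coding genes). *Cytl1*, a secreted cytokine-like protein, had 0 UMIs in the 401 droplets against 90.3, 136, and 148 CPM in endothelial droplets, at least 15.3-fold lower against a floor of 3 counts over the 3 mice. *Slc39a10*, a zinc importer of the plasma membrane, *Ceacam1*, an adhesion receptor, *Lgals3bp*, a secreted glycoprotein, *Phxr4*, and *Ciart*, a repressor of the circadian clock, also had 0 UMIs and were at least 10.2-, 8.23-, 8.09-, 7.49-, and 6.40-fold lower. *Cr1l*, *Magt1*, *Fgl2*, and *Atp2c1* had 1 UMI each, and *Fbln2*, an extracellular matrix protein, had 4 UMIs against 524, 605, and 551 CPM. *Vwf*, with 15 UMIs, was the most abundant of the 12.

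The question of which capillary type the RNA resembled was asked against nucleated endothelial droplets divided by *Car4* plus *Ednrb* (*Car4*-type, 138 droplets) or *Aplnr* plus *Kit* (*Aplnr*-type, 602 droplets). Of 8237 genes tested, 1312 (15.9%) were higher and 2005 (24.3%) lower against *Car4*-type droplets, 40.3% in all, and 1448 (17.6%) were higher and 2060 (25%) lower against *Aplnr*-type droplets, 42.6% in all. Without TMM the counts were 1770 and 1742, and 1964 and 1750, so the share of calls that were higher went from 39.6% to 50.4% and from 41.3% to 52.9%. Without mouse 4 the higher genes numbered 853 and 945, and without mouse 2 those against *Aplnr*-type droplets numbered 942. The *Epas1*+ low-mt droplets lacked much of both signatures. The genes that divided the reference were low as well, with *Car4* at 26.9, 67.6, and 44.6 CPM (978 ± 139 in *Car4*-type droplets) and *Aplnr* at 134, 147, and 81.9 CPM (733 ± 61.6 in *Aplnr*-type droplets).

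Against *Car4*-type droplets all 9 tested *Car4*-type genes were lower (median -3.68), and against *Aplnr*-type droplets all 4 tested *Aplnr*-type genes were lower (median -3.28), as the choice of each reference favors. Across types, the 4 *Aplnr*-type genes were lower against *Car4*-type droplets too (median -2.45), and of the 9 *Car4*-type genes 2 were higher, 3 lower, and 4 did not pass against *Aplnr*-type droplets (median -0.12). Both lists consist largely of secreted and membrane proteins. Among them *Plvap*, the diaphragm protein of fenestrae, was at 60.5, 56.4, and 37.2 CPM against 961, 910, and 825 CPM in *Aplnr*-type droplets. The cytosolic and nuclear members gave other values. *Tbx2*, a T-box transcription factor of *Car4*-type cells, was at 242, 124, and 260 CPM, between the *Aplnr*-type (34.5, 60.0, and 48.2 CPM) and the *Car4*-type droplets (569, 604, and 570 CPM), and differed from each (log2 fold change 2.05 ± 0.26, edgeR adjusted p = 4.26e-06, and -1.58 ± 0.21, adjusted p = 6.96e-06). *Prx*, which encodes the scaffold protein periaxin, was at 323, 316, and 327 CPM, likewise between 219, 212, and 207 CPM and 492, 532, and 474 CPM (0.42 ± 0.13 and -0.81 ± 0.13). Of the transcription factors, *Sox18*, *Fli1*, and *Ets1* were higher against both types. *Klf4*, *Foxf1*, and *Tbx3* were lower against *Car4*-type droplets (log2 fold changes -0.50, -0.52, and -0.81), and *Erg* was lower against *Aplnr*-type droplets (-0.59), where *Klf2* and *Gata2* were higher (0.39 and 0.44). Without TMM 1 factor was lower against *Car4*-type and 0 against *Aplnr*-type droplets. *Sox17* was higher against *Car4*-type droplets, where it was at 315, 277, and 246 CPM (0.61 ± 0.14), and did not pass against *Aplnr*-type droplets, where it was at 421, 418, and 444 CPM.

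Vessel type lists were then set side by side. Against all endothelial droplets, where 18.4% of all genes were lower, 7 of 9 arterial, 5 of 7 venous, and 2 of 6 lymphatic genes were lower, as were 7 of 9 *Car4*-type and 4 of 5 *Aplnr*-type genes, and none was higher. Against both capillary types the 5 genes with the largest rise included *Acta2*, *Tagln*, *Tpm2*, and *Myl9*, with *Myl4* against *Car4*-type and *Heyl* against *Aplnr*-type droplets, and *Slc39a10* was among the 5 lowest in both. The 2 capillary comparisons use the same sums of *Epas1*+ low-mt droplets.

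Genes of immune and blood cells were nearly absent. T and NK cell genes had 0 UMIs in the 401 droplets, which allows a share of droplets with a UMI of up to 0.916% (exact 95% interval), and mast cell or basophil genes had 0 UMIs as well. The 6 erythroid genes gave 4 UMIs, and B cell and macrophage genes 0.00821% and 0.00379% of UMIs. No gene of the AT1, airway, B cell, T and NK cell, macrophage, neutrophil, platelet, or mast cell lists passed the edgeR test against all endothelial droplets in either direction. Against the capillary types, the airway gene *Scgb1a1* was higher (log2 fold changes 1.64 against *Car4*-type and 1.51 against *Aplnr*-type droplets), and of the AT1 genes *Cldn18* was higher against *Aplnr*-type (2.44) and *Hopx* and *Clic5* were lower against *Car4*-type droplets (-1.36 and -0.43). In all, 31 droplets held a UMI of a B, T, NK, or macrophage gene.

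Epithelial RNA was mainly surfactant mRNA, which was found in all groups. AT2 genes gave 0.274% of UMIs, of which *Sftpc*, the most abundant transcript of alveolar type 2 cells, had 785 of 976. *Sftpc* was at 1868, 2853, and 1890 CPM against 1932, 145, and 1178 CPM in endothelial droplets (log2 fold change 0.66 ± 0.66, edgeR adjusted p = 0.529), with overlap between mice. Of the 10 AT2 genes *Abca3*, a lipid transporter, was lower and 9 did not pass. At least 1 AT2 UMI was present in 77.3% of *Epas1*+ low-mt droplets (median 828 UMIs) and in 96.5% of B-cell-type droplets (4040 UMIs). At 500 UMIs per droplet the order was reversed, 56.9% against 43.1%, with 15.3% in stromal droplets. This thinned share in *Epas1*+ low-mt droplets had an SD of 19.4 percentage points over the mice. For *Sftpc* alone the thinned shares were 49.9% in *Epas1*+ low-mt, 18.5% in B-cell-type, and 11.8% in stromal droplets. B-cell-type droplets thus also hold other genes of the AT2 list, and their AT2 share is not a background level. Airway genes gave 113 UMIs, 103 of them *Scgb1a1*. AT1 genes had a UMI in 133 of the 401 droplets (33.2%). At 500 UMIs per droplet this share was 22.6%, against 20.9% in endothelial, 3.53% in stromal, and 2.01% in B-cell-type droplets. At least 3 UMIs of AT1, airway, or AT2 genes other than *Sftpc* were present in 43 droplets (10.7%).

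When all droplets were clustered on log-normalized counts, 307 of the 401 (120, 75, and 112 in mice 2, 3, and 4) fell in a cluster of 505 droplets led by *Hpgd*, *Sox7*, *Epas1*, *Prdm8*, *Sox18*, and *Palmd*. The next largest parts were 28 droplets in a cluster led by the cell cycle genes *Cenpf*, *Top2a*, and *Mki67*, 18 in a cluster led by *Myl7*, *Tnni3*, *Myl4*, and *Tnnt2*, 16 in a cluster led by the pericyte genes *Higd1b* and *Cox4i2*, and 11 in a cluster led by *Apln*, *Kdr*, and *Car4*. None of the clusters described here was given a cell type name.

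The *Epas1*-negative low-mt droplets served to show what went with an *Epas1* UMI among droplets of like size and mt- share. Of 13727 genes tested, 543 (3.96%) were higher and 233 (1.7%) lower in *Epas1*+ low-mt droplets, 5.65% in all, and without TMM 415 were higher and 293 lower (70.0% and 58.6% of calls higher). DESeq2 turned the balance, with 339 higher and 459 lower. Without mouse 2, 3, or 4 the counts were 290, 328, and 247 higher and 85, 139, and 114 lower. The higher genes included 17 of the 25 endothelial genes (median log2 fold change 2.94, or 2.66 with genes at 0 in a group set to their bound), 11 of the 13 transcription factors, 5 of 8 caveola genes, and 6 of 9 BMP pathway genes. *Klf2*, the flow-induced transcription factor of ECs, was at 1156, 1173, and 1124 CPM against 90.1, 108, and 187 CPM (3.29 ± 0.37), and *Calcrl* at 685, 665, and 700 CPM against 90.1, 108, and 23.3 CPM (3.37 ± 0.38). Smooth muscle genes were lower, 3 of 5, as were 26 of 80 ribosomal genes (52 without TMM). None of the 10 ER genes passed (2 were lower without TMM). Of 20 respiratory chain genes 1 was lower, 0 were higher, and 19 did not pass (median -0.05). Of 11 actin genes 1 was higher, 3 were lower, and 7 did not pass (median 0.06). Genes grouped by the hydrophobic stretch gave a median of 0 with and 0.22 without a stretch in this comparison over all coding genes tested.

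The genes with the largest rise against *Epas1*-negative droplets had 0 UMIs there. *Myzap*, a junction-associated protein, was at 437, 575, and 484 CPM, at least 20.2-fold higher against a floor of 3 counts over the 3 mice. *Sox11*, a SoxC transcription factor, was at 363, 631, and 335 CPM and at least 17.3-fold higher, and *Arap3*, *Adgrf5*, and *Fam181b* followed with at least 8.35-, 6.68-, and 5.68-fold. The lowest had 0 UMIs in *Epas1*+ low-mt droplets, with *Rac2* at least 17.0-fold, *Cd209a* 14.0-fold, *Spi1* 13.0-fold, *Dusp14* 8.98-fold, and *Clec4n* 7.98-fold lower.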

How the data were processed

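The authors made 10x Chromium v3 libraries from 3 lungs, loading 16000 cells per the labels (the study's methods give a lower number). Cell Ranger 3.0.2 and build mm10 are named in the submitters' processing notes. The deposited values are raw UMI counts per gene and droplet, 1 table per mouse, for 9644 droplets, while the design text of the series gives 5677 cells. Droplets of these tables were chosen and gated as described, with 0 columns left unused and no doublet caller.

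UMI counts were summed per mouse and droplet group and compared with edgeR 4.0.16 (R 4.3.3, quasi-likelihood test, TMM, filterByExpr, Benjamini-Hochberg adjustment, threshold 0.05). The main fit held 6 groups and the capillary fit 3. Genes used by the selection or the gates, and *Hpgd*, *Sox7*, and *Tmem100*, got no test. Coordinates and coding sequences are GRCm38 with GENCODE M21. Named genes are the 12 with the highest and the 12 with the lowest fold change among called genes at 50 CPM or more in the higher group that moved the same way in 3 mice (5 each for the other comparisons), without mt-, Rpl, Rps, Gm, and Rik genes, beside genes of the lists. Droplets and lists were chosen with earlier results of these data known. Of the listed symbols 4 had no row.

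Since each mouse gave all of its sums, an alternative fit held a replicate block (1 level per animal). Deviations from the group means correlated with r = 0.0316, 0.0215, and 0.0283 over 13759 genes. The other alternatives were DESeq2 1.42.0, no TMM, no filter on low counts, other member limits, other references, and leaving out each mouse. Leaving out droplets with shared barcodes or with smooth muscle, pericyte, or fibroblast UMIs, the hydropathy threshold of 1.8, and the split by stretch position were chosen after seeing the data. Comparisons by hydrophobic stretch and by coding length were not in the written plan of tests either. Intervals and floors cover counting error only.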

Additional observations from a re-analysis of the deposited data

How the results depend on the processing

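The counts of called genes were stable to within 1.5 times in 66 of 86 repeats, and of 479 repeats of named genes 448 kept direction and call, 22 lost the call, and 9 reversed. Medians were less stable, since 346 of 560 repeats of list medians stayed within the spread over mice, 197 moved, and 17 reversed, and of 42 repeats of the stretch medians 15 stayed, 26 moved, and 1 reversed. Limits: the *Epas1*+ low-mt droplets hold a median of 828 UMIs against 8160 in the reference, and endothelial droplets with at most 2000 UMIs numbered 11, so depth and droplet group cannot be told apart in these libraries. Causes of the changes below were not tested.

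Genes higher than in endothelial droplets (1177) numbered 2032 without TMM, 333 in droplets of at most 1000 UMIs, 761 with *Epas1* at 2 UMIs or more, and 651 without droplets holding smooth muscle, pericyte, or fibroblast UMIs, where those against *Car4*-type and *Aplnr*-type droplets numbered 798 and 848. Genes lower than in endothelial droplets (2522) numbered 27 against the 11 small endothelial droplets, where 1041 were higher. At most 1000 UMIs left 267 droplets. Against *Epas1*-negative droplets DESeq2 called 339 higher and 459 lower (543 and 233 in edgeR). Leaving out 1 mouse gave 579 to 939 higher against endothelial, 247 to 328 higher and 85 to 139 lower against *Epas1*-negative, 853 to 1041 higher against *Car4*-type, and 942 to 1213 higher against *Aplnr*-type droplets.

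Log2 fold changes with a reversed sign were as follows. Against the 11 small endothelial droplets the medians were 5.36 for venous, 0.78 for lymphatic, 3.46 for nuclear noncoding, 7.34 for immediate early, 5.13 for hypoxia, 0.96 for BMP, and 2.68 for prostaglandin genes, 2.74 for genes with a stretch (6.35 without), and 5.36 for *Fgl2*. Leaving out droplets with mural or fibroblast UMIs sets the genes of these lists to 0 by construction. The medians were then -5.84 for fibroblast, -6.88 for smooth muscle, and -8.13 for pericyte genes. *Acta2* was at -6.88 and *Tagln* at -7.61. Of genes on none of these lists, *Tpm2* was at -6.05, *Myl9* at -1.27, *Ppp1r14a* at -7.37, *Des* at -0.092, and *Tbx4* at -6.73. None of these genes was called. In endothelial droplets the genes outside the lists averaged 2.91, 8.79, 7.56, 3.89, and 4.92 CPM. Since 3 UMIs already make 8.07 CPM in all *Epas1*+ low-mt droplets together, no direction is read from their fitted values. The fibroblast median was -0.32 with mt- UMIs under 1%, -0.00120 with *Malat1* at 0, -0.52 against endothelial clusters, and -1.42 to 1.20 with 1 mouse left out. The T and NK cell median was 2.37 in DESeq2, but these genes had 0 UMIs in the 401 droplets, so it shows no rise. The platelet median was 0.97 with mt- UMIs under 5%. *Tnnt2*, with 2 UMIs in the endothelial droplets, was at -2.60 with *Epas1* at 2 UMIs or more, and no direction is read from it.

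With the mouse as a replicate block, 1143 genes were higher and 2442 lower against endothelial droplets, 499 and 231 against *Epas1*-negative, 1284 and 2016 against *Car4*-type, and 1428 and 2067 against *Aplnr*-type droplets, and the pairing reversed no named gene.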

Other observations

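The 144 *Epas1*-negative low-mt droplets held RNA of several cell types, unevenly over the mice. Airway genes took 1.81% of their UMIs in mouse 2, 0.0135% in mouse 3, and 0.0536% in mouse 4, with *Scgb1a1*, the secretory protein of club cells, at 16575, 135, and 397 CPM. The platelet chemokine *Pf4* was at 586, 27.1, and 0 CPM, from 27 UMIs, and had 0 UMIs in the *Epas1*+ droplets. Smooth muscle genes took 0.397% of UMIs and ribosomal protein genes 19.1%, against 0.0863% and 13.6% in *Epas1*+ droplets. *Mgp*, a secreted matrix protein, was at 2410, 1569, and 3009 CPM, while *Epas1*+ droplets had 484, 169, and 417 CPM and stromal droplets 10050 ± 641 CPM. Nuclear noncoding RNAs were low in both low-mt groups, 0.00474% and 0.00614% of UMIs.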
